A study of Mus musculus with 6 samples.

Results

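The 6 genes described here are Fcgr1, Fcgr2b, Fcgr3, Fcgr4, Fcer1g and Fcgrt. They encode mouse receptors for the constant part of immunoglobulin G and, in Fcer1g, the chain that the activating receptors signal through. They are a named gene family, found as the probes whose RefSeq accession maps to these genes. The rule uses no measured value, although the family was picked with earlier results of these data known. Each has 1 probe on the array, and they are 6 of the 37074 genes and transcripts that the array's non-control probes represent. All of them stood well above background on 6 of 6 arrays and so entered the test, among 25777 genes tested. Their probes match NM_010186 for Fcgr1, NM_001077189 for Fcgr2b, NM_010188 for Fcgr3, NM_144559 for Fcgr4, NM_010185 for Fcer1g and NM_010189 for Fcgrt.

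The study gave male mice of strain C57BL/6JHamSlc-ob/ob intraperitoneal Brazilian propolis, an ethanol extract of a bee product, at 100 mg/kg, 2 injections per week for 12 weeks, or a vehicle with dilute DMSO and ethanol. Both groups carry the ob/ob leptin mutation and are obese, so there is no lean control, and the labels used here give no age. Cells were released from mesenteric fat by collagenase, with red cells lysed. They gave the stromal vascular fraction, a mixture of immune, endothelial and stromal cells that is meant to leave fat cells out. Its total RNA was hybridised to 1-colour Agilent arrays, 3 vehicle and 3 propolis samples labelled as biological replicates. How many mice each sample holds is not stated, so p-values measure the spread between these samples.

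Immunoglobulin G that has bound its antigen is read by leukocytes through Fc gamma receptors. The activating receptors Fcgr1, Fcgr3 and Fcgr4 have no long signalling tail of their own and depend on the common gamma chain, the product of Fcer1g, whose tyrosine-based activation motif is phosphorylated by Src family kinases and then recruits Syk. Fcgr2b carries an inhibitory motif in its own tail, which recruits the lipid phosphatase SHIP-1, encoded by Inpp5d, and so sets the threshold for activation. Macrophages, which are abundant in obese fat, carry all of these receptors, whereas B cells carry Fcgr2b as their only classical Fc gamma receptor and natural killer cells carry Fcgr3. Fcgrt encodes the neonatal Fc receptor, a relative of class I histocompatibility molecules that pairs with beta-2-microglobulin and returns immunoglobulin G and albumin from endosomes to the circulation.

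In the mouse, Fcgr2b, Fcgr4 and Fcgr3 lie next to each other on chromosome 1, with Fcer1g further along, whereas Fcgr1 lies on chromosome 3 and Fcgrt on chromosome 7. In the RefSeq annotation of GRCm38.p6, used here for gene order only because the array design is on another build, 42 genes run from Fcgr2b to Fcer1g. Of these, 11 are protein-coding. The stretches before the start sites of the 4 receptors of leukocytes are shown because 3 of these genes had the largest differences among the 6 and the fourth, Fcgr3, did not. All sequences are from RefSeq on GRCm38.p6 and give the 250 bases before the annotated start, 5′ to 3′ on the gene's strand. They lie at chr3:96293970-96294219 (minus strand) for Fcgr1, chr1:171018676-171018925 (plus strand) for Fcgr4, chr1:171059404-171059653 (minus strand) for Fcgr3, which has 2 annotated start windows of which the first is printed, and chr1:170976072-170976321 (minus strand) for Fcgr2b. Capitals mark matches, on either strand, to 2 motifs: GAAA followed after any 2 bases by another GAAA, a core of the interferon-stimulated response element, and GAGGAA, a core bound by the myeloid factor PU.1 (its other strand reads TTCCTC).
Fcgr1: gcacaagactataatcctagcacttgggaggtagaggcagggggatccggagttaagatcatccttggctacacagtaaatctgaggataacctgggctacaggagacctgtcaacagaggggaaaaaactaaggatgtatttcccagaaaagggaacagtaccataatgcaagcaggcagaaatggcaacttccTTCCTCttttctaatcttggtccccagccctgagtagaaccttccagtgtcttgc
Fcgr4: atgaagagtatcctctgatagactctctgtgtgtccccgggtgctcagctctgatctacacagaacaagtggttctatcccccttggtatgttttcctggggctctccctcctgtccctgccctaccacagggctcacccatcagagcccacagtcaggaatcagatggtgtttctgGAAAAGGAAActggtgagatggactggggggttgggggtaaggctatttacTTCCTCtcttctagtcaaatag
Fcgr3: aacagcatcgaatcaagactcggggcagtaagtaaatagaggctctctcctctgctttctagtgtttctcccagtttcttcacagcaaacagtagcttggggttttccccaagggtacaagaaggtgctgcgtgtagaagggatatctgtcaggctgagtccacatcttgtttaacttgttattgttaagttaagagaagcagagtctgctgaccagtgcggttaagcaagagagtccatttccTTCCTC
Fcgr2b: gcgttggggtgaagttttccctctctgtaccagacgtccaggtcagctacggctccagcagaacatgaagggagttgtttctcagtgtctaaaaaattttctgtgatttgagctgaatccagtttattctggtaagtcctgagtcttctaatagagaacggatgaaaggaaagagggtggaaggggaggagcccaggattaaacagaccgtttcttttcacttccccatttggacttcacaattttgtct

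The Fcgr1 stretch held TTCCTC, which begins 55 bases before the start. Fcgr4 held GAAAAGGAAA from 73 bases and TTCCTC from 22 bases before the start. In Fcgr3 the only match was TTCCTC, from 6 bases before the first start or 15 bases before the second. The 300-base windows of Fcgr2b, Fcer1g and Fcgrt, which add 50 bases after the start, held none of these letters. Over all 32851 promoter windows of that length in the table, 3.44% held the interferon-stimulated response core and 28.3% held GAGGAA. These matches are descriptions of the letters only.

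All levels are log2 intensities relative to the 75th percentile of the same array, so a level of 0 is that percentile, and each unit is a 2-fold step. A difference is the propolis mean minus the vehicle mean on that scale, with the standard error (SE) of limma's fit. Levels belong to a probe and are not compared between genes. Across arrays, 61.1% to 66.7% of the 59305 spots were well above background and none was saturated, and the correlation between arrays ran from 0.940 to 0.989. Vehicle 1 and 2 and propolis 1 and 2 share a slide, and vehicle 3 and propolis 3 share the other. Markers checked against the label were present: the mean log2 level of 12 macrophage markers, led by Csf1r, C1qc and C1qa, lay between 4.14 and 4.58, and that of 6 stromal progenitor markers between 5.14 and 5.42. Vehicle 2 and vehicle 3 stand apart. Vehicle 2 carried pancreatic acinar markers at a mean of 4.32, against -3.47 to -1.96 on the other arrays, and vehicle 3 carried intestinal epithelium markers at 5.03, against -2.85 to -0.38. Differences of the 6 genes are therefore also given without both arrays. That leaves vehicle 1 as the only vehicle array against the propolis arrays, so these values rest on it. It was the highest vehicle array for Fcgr1, Fcgr2b, Fcgr4 and Fcgrt.

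None of the 6 genes passed the threshold of an adjusted p of 0.05 (limma, Benjamini-Hochberg over all genes), where 0.834% of all genes tested did (0.722% higher and 0.113% lower). The same fit over every probe passed 0.727% of probes and none of theirs. All 6 had a higher mean under propolis (5 under quantile normalization, where Fcgrt was lower), with a median difference of 0.58 against -0.0041 over all genes. Without vehicle 2 and 3, 5 of the 6 means were still higher and Fcgrt's was not, as given below. The unadjusted p was below 0.05 in the higher direction for 3 of them, Fcgr1, Fcgr2b and Fcgr4, as for 7.24% of all genes. In 2 of the 6, Fcgr2b and Fcgr4, every propolis array lay above every vehicle array, as in 10.8% of all genes. In such bulk samples more RNA per cell and more cells of a type cannot be told apart.

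**Figure D1:**
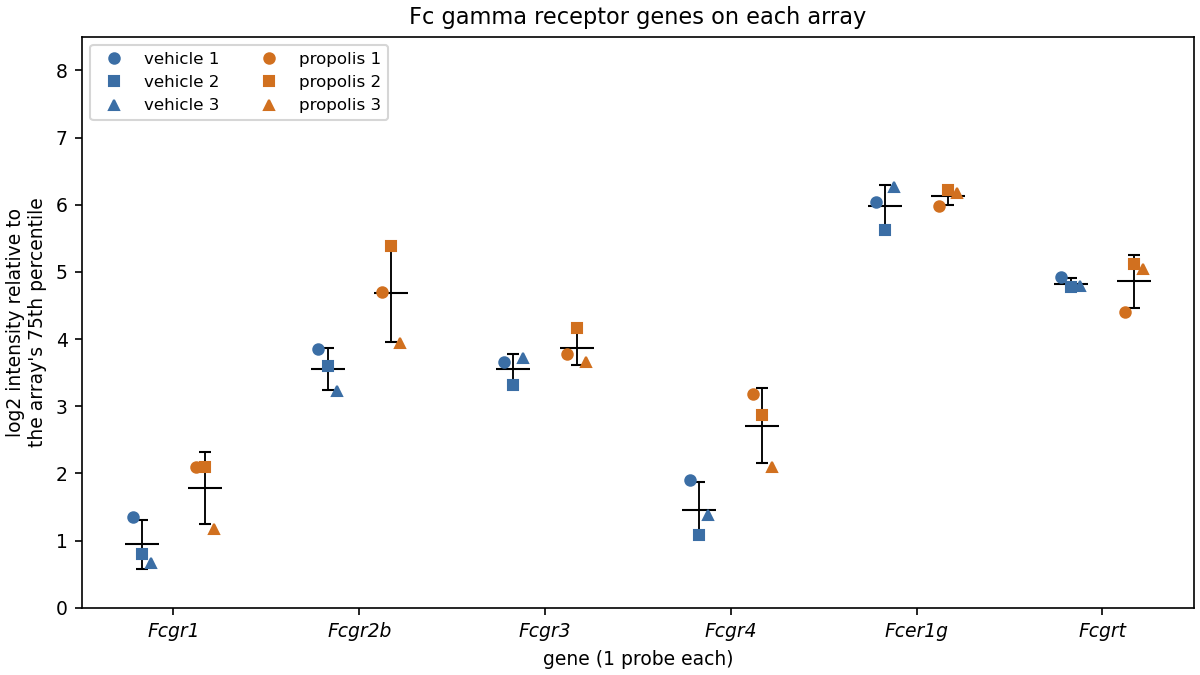
Log2 level relative to the array's 75th percentile (y axis) of Fcgr1, Fcgr2b, Fcgr3, Fcgr4, Fcer1g and Fcgrt on the 3 vehicle and 3 propolis arrays, with points for arrays and bars for the group mean and SD. The groups do not overlap for Fcgr2b and Fcgr4, and overlap for the other genes.

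Of the activating receptors, Fcgr4, a receptor of intermediate affinity found on monocytes, macrophages and neutrophils, had the largest difference of the 6 genes. Its log2 level was 1.91, 1.09 and 1.39 on vehicle arrays 1 to 3 and 3.18, 2.87 and 2.09 on propolis arrays 1 to 3. The lowest propolis array lay 0.19 above the highest vehicle array. The group means were 1.46 ± 0.41 and 2.71 ± 0.56 (SD, n = 3 each), a difference of 1.25 (SE 0.35), or 2.38-fold (95% confidence interval 1.32 to 4.29), with an adjusted p of 0.225 by limma. On the shared slide of 4 arrays the difference was 1.53 and on the other slide, with 1 array of each group, it was 0.70. Without vehicle 2 and 3 it was 0.81. Its difference exceeded that of 97.4% of all genes tested.

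Fcgr1 encodes the high-affinity receptor, CD64, the member of the family that binds single antibody molecules and a widely used macrophage surface marker. Vehicle arrays had log2 levels of 1.36, 0.80 and 0.67, and propolis arrays 2.10, 2.09 and 1.17. Propolis 1 and 2 were above every vehicle array, but propolis 3 lay below vehicle 1, so the groups overlap. From 0.95 ± 0.36 in vehicle to 1.79 ± 0.54 in propolis (SD, n = 3 each), the difference was 0.84 (SE 0.33), or 1.79-fold (95% interval 1.03 to 3.11), with an adjusted p of 0.400 by limma. The values within slides were 1.01 and 0.49. Leaving out vehicle 2 and 3 left 0.43, about as large as the SD within a group.

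Fcgr3, the low-affinity activating receptor of macrophages, neutrophils and natural killer cells, had a smaller difference. Its log2 level was 3.65, 3.32 and 3.71 in vehicle and 3.78, 4.16 and 3.67 in propolis. Propolis 3 lay below vehicle 3, and propolis 2 alone stood clearly above the rest. The means were 3.56 ± 0.21 and 3.87 ± 0.26 (SD, n = 3 each). Their difference of 0.31 (SE 0.21) was 1.24-fold, with a 95% interval of 0.868 to 1.77 that holds both a decrease and an increase, and an adjusted p of 0.669 by limma. On the slide of 4 arrays the difference was 0.49, and on the other it was -0.047. It was 0.22 without vehicle 2 and 3, and 0.16 without propolis 2.

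Fcgr2b, the inhibitory receptor and the only member of the family with a suppressing motif in its own tail, also had higher values under propolis. Its probe is printed as 10 spots on each array, with an SD of 0.061 to 0.077 between spots, so its level on an array is measured more finely than the others. The log2 level was 3.85, 3.60 and 3.23 in vehicle and 4.70, 5.39 and 3.94 in propolis. The groups did not overlap, but the gap between vehicle 1 and propolis 3 was only 0.094, and propolis 2 was far above the others. Means of 3.56 ± 0.31 and 4.68 ± 0.72 (SD, n = 3 each) gave a difference of 1.12 (SE 0.39), or 2.17-fold (95% interval 1.13 to 4.17), with an adjusted p of 0.334 by limma. Slide by slide it was 1.32 and 0.72, and without vehicle 2 and 3 it was 0.83. When limma's array weights were used, Fcgr2b passed with a difference of 1.34 and an adjusted p of 0.0248, but so did 12.5% of all genes, and over the other settings with a test its adjusted p ran from 0.113 to 1.00. B cells, which carry this receptor, had lower mean marker levels under propolis. The mean of 6 B cell markers was -0.34, 1.67 and -2.27 in vehicle and -3.34, -2.89 and -1.86 in propolis, and all 6 had a lower mean, with none passing the test. Their summed linear level was 3.43 to 57.5 in vehicle and 2.46 to 4.22 in propolis, and a further marker, Pax5, did not enter the test. Their part in the Fcgr2b value was not tested.

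Fcer1g, the common gamma chain that the activating receptors need at the cell surface, showed little difference. It was 6.04, 5.62 and 6.26 in vehicle and 5.98, 6.22 and 6.17 in propolis on the log2 scale. The propolis arrays all fell inside the vehicle range. With means of 5.97 ± 0.33 and 6.12 ± 0.13 (SD, n = 3 each), the difference was 0.15 (SE 0.22), 1.11-fold with a 95% interval of 0.77 to 1.60 and an adjusted p of 0.849 by limma. It was 0.27 and -0.088 within the slides and 0.085 without vehicle 2 and 3. The interval leaves room for a rise of up to 1.60-fold, so a change of that size is not excluded by these 6 arrays.

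Fcgrt, the neonatal receptor, was likewise close to level. Vehicle arrays read 4.92, 4.77 and 4.79 and propolis arrays 4.40, 5.12 and 5.05 in log2. Propolis 1 was the lowest of all 6 arrays and propolis 2 the highest. The means were 4.83 ± 0.082 and 4.86 ± 0.39 (SD, n = 3 each), a difference of 0.030 (SE 0.24) with an interval of 0.688 to 1.52-fold and an adjusted p of 0.976 by limma. It was -0.084 and 0.26 within the slides and -0.063 without vehicle 2 and 3, so no direction can be given. Its partner B2m, which encodes beta-2-microglobulin, the light chain that Fcgrt needs to leave the endoplasmic reticulum, differed by 0.027 (SE 0.18, adjusted p 0.971 by limma), with a sign that turns under quantile normalization (-0.019).

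**Figure D2:**
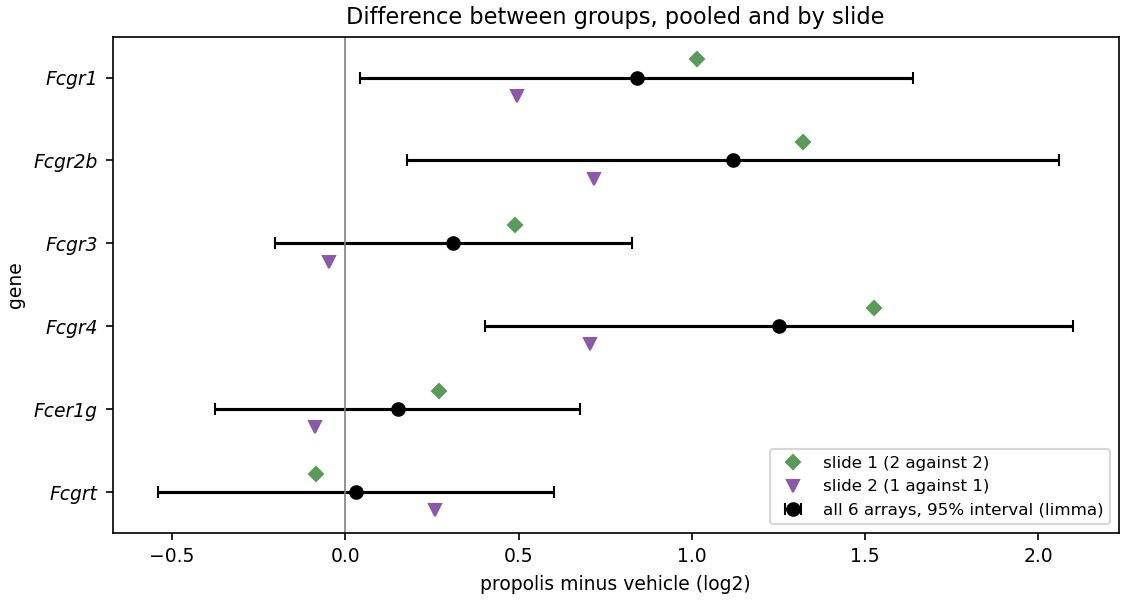
Propolis minus vehicle difference in log2 level (x axis) of each of the 6 genes over all 6 arrays with its 95% confidence interval, with the values within each slide beside it. The intervals of Fcgr1, Fcgr2b and Fcgr4 lie above 0 before adjustment over all genes, and those of Fcgr3, Fcer1g and Fcgrt include 0.

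Differences taken within an array remove anything that moves every gene of that array together. There were 12 such comparisons, tested by exact two-sided permutation, which with 3 arrays against 3 cannot give a p below 0.1, and adjusted over the 12. For the balance of activating to inhibitory receptors, Fcgr4 minus Fcgr2b was -1.94, -2.51 and -1.84 in vehicle and -1.52, -2.52 and -1.85 in propolis. The groups lay on top of each other, with a change of 0.13 (exact p 0.8, adjusted 0.873) that was -0.022 without vehicle 2 and 3. Fcgr3 minus Fcgr2b was -0.20, -0.29 and 0.49 in vehicle and -0.92, -1.23 and -0.28 in propolis, lower by 0.81 on average but overlapping (exact p 0.2, adjusted 0.4). That change was -0.61 without vehicle 2 and 3. Fcgr1 minus Fcgr2b changed by -0.28 (exact p 0.3, adjusted 0.45), by -0.40 without vehicle 2 and 3 and by -0.077 without propolis 2.

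Set against the chain they share, the activating receptors gave unlike values. Fcgr4 minus Fcer1g was -4.13, -4.53 and -4.88 in vehicle and -2.80, -3.36 and -4.08 in propolis. Every propolis array was above every vehicle array, though propolis 3 (-4.08) lay only just above vehicle 1 (-4.13). The mean change was 1.10 (exact p 0.1, the smallest this design allows, adjusted 0.4). With quantile normalization the change was 1.13 and the exact p 0.2. It was 0.72 without vehicle 2 and 3. The same difference changed by 0.69 for Fcgr1 (exact p 0.3, adjusted 0.45) and by 0.16 for Fcgr3 (exact p 0.4, adjusted 0.533), both with overlap. For Fcgr1 it was 0.34 without vehicle 2 and 3, and with each array left out in turn it ran from 0.41 (without vehicle 3) to 1.02. For Fcgr3 it was 0.13 without vehicle 2 and 3, and ran from 0.063 (without propolis 2) to 0.29 (without propolis 3).

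**Figure D3:**
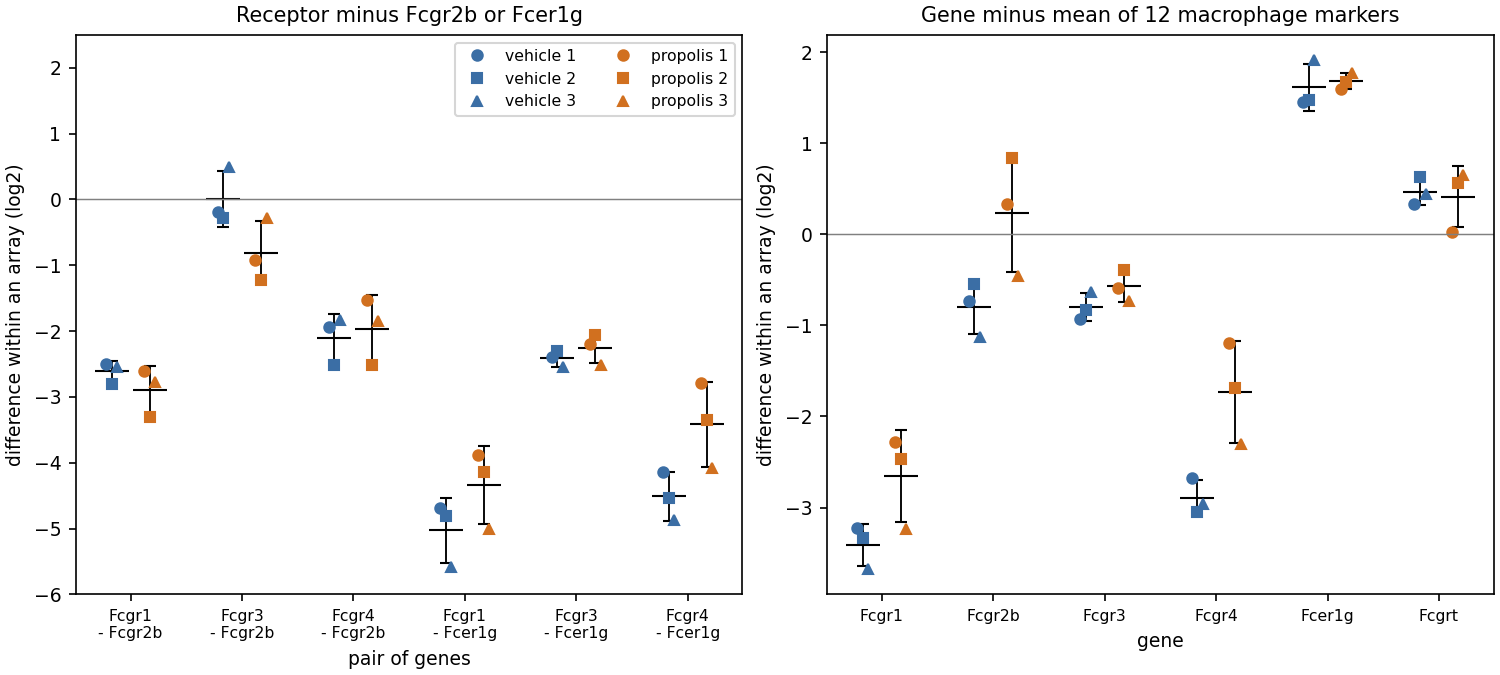
Within-array differences in log2 level (y axis) between receptor genes, and between each of the 6 genes and the mean of 12 macrophage markers, on the 3 vehicle and 3 propolis arrays, with bars for the group mean and SD. The groups separate for Fcgr4 minus Fcer1g and for Fcgr2b and Fcgr4 minus the macrophage markers, and overlap in the others.

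Macrophages carry the Fc gamma receptors, though which cells gave each transcript here was not measured. Each gene was also set against the mean of the 12 macrophage markers with a tested probe, out of 13 listed. That mean was 4.14 to 4.58 in vehicle and 4.37 to 4.55 in propolis, and the summed linear level 460.1 to 604.0 and 443.5 to 632.8. Of the 12 markers, 7 had a higher and 5 a lower mean, none passed the test, and no marker was without a signal above background. Relative to them, Fcgr2b was -0.73, -0.54 and -1.12 in vehicle and 0.33, 0.84 and -0.45 in propolis, higher by 1.04 without overlap (exact p 0.1, adjusted 0.4). Fcgr4 went from -2.68, -3.05 and -2.96 to -1.19, -1.69 and -2.31, higher by 1.17, also without overlap (exact p 0.1, adjusted 0.4). The marker mean itself differed little between the groups over all 6 arrays, so this reference moved the differences only slightly there. The near-level value of Fcgrt still changed sign, from 0.030 to -0.054. Fcgr1 changed by 0.76 and Fcgr3 by 0.23 (both exact p 0.2, adjusted 0.4), Fcer1g by 0.067 (exact p 0.7, adjusted 0.84) and Fcgrt by -0.054 (exact p 0.9, adjusted 0.9), all overlapping. Without vehicle 2 and 3 these changes were 0.57 for Fcgr1, 0.97 for Fcgr2b, 0.36 for Fcgr3, 0.95 for Fcgr4, 0.23 for Fcer1g and 0.079 for Fcgrt. There the reference moved the differences more: before it was subtracted, Fcer1g was 0.085 and Fcgrt -0.063.

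Other leukocytes carry some of these receptors, and their markers were read on the same arrays. Of 7 neutrophil markers, among them Csf3r, S100a9 and S100a8, 4 had a higher and 3 a lower mean, with a median difference of 0.60 and a list mean of -0.94 to 1.16 in vehicle and -0.25 to 0.85 in propolis. For 6 monocyte markers the median difference was 0.22, with a list mean of 1.64 to 1.91 and 1.68 to 2.03. Natural killer markers, 8 genes, had a median of 0.20 and list means of -1.19 to -0.76 and -0.99 to -0.55. Differences of single neutrophil markers ran from -2.31 (Ngp) to 1.06 (Cxcr2), so that list had no common direction. Of 5 dendritic cell markers that entered the test, 1 had a higher and 4 a lower mean. Their median difference was -0.44, with a list mean of 0.85 to 1.13 in vehicle and 0.68 to 0.89 in propolis. None of these markers passed the test, each list overlapped between the groups, and their part in the receptor values was not tested.

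Downstream of the receptors, 26 listed signalling genes, from the kinases to the subunits of the NADPH oxidase that makes the oxidative burst, all entered the test and none passed. A higher mean was found for 3 and a lower one for 23. The median difference was -0.28, against -0.0041 over all genes, on the other side of 0 from the receptors. Scaled on each array's median, which puts the median of all genes at 0.15, 9 were higher and 17 lower, with a median of -0.12. The median was -0.18 without vehicle 1. In the lower direction, 6 had an unadjusted p below 0.05 (Lat2, Blnk, Cybb, Syk, Cbl and Ptpn6), where 4.48% of all genes did, and 7 had groups that did not overlap, where 6.62% of all genes did in that direction.

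Lat2, an adaptor phosphorylated after receptor engagement, was 2.33, 2.10 and 1.81 in vehicle and 1.05, 1.35 and 0.32 in propolis. The difference was -1.17 (SE 0.31, adjusted p 0.194 by limma), without overlap. Blnk, an adaptor that links Syk to phospholipase C in B cells and macrophages, was 5.25, 5.29 and 4.88 against 3.79, 4.76 and 3.96. It differed by -0.97 (SE 0.30, adjusted p 0.267), again without overlap. Cybb, the catalytic oxidase subunit, was 1.38, 1.21 and 1.46 against -0.075, 0.94 and 0.51, a difference of -0.89 (SE 0.28, adjusted p 0.286). Syk itself was 3.60, 3.57 and 3.35 against 3.03, 3.13 and 2.82, lower by 0.51 on average with values of -0.51 and -0.53 within the slides (adjusted p 0.327).

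The phosphatases that oppose activation did not pass the test either. Inpp5d, the partner of Fcgr2b, differed by 0.014 (SE 0.32, adjusted p 0.990), with 3.65, 3.57 and 3.01 in vehicle and 3.55, 3.86 and 2.87 in propolis. Ptpn6, the phosphatase SHP-1 that other inhibitory receptors recruit, was 3.35, 3.62 and 3.33 against 2.87, 3.17 and 2.78, with a difference of -0.49 (SE 0.19, adjusted p 0.390). None of these differences passed. Markers of several cell types also had lower means: all 6 B cell, 7 of 7 T cell (median -0.57), 6 of 7 mast cell (-0.87), 4 of 4 eosinophil (-0.90) and 7 of 7 blood endothelium markers (-0.80), with none passing. The T cell list mean was 2.03, 2.43 and 1.15 in vehicle and 0.82, 1.31 and 1.68 in propolis, with overlap. On the slide with 1 array of each group, the list means of T cell and B cell markers were higher in propolis. The 5 mesothelium markers had higher means (median 1.71), and Wt1 among them passed (1.98, adjusted p 0.0320 by limma), though its adjusted p was 0.0575 to 0.144 with each array left out in turn. All 5 fat cell markers had lower means (median -0.72), with none passing. Their list mean was -0.36, 0.45 and 1.07 in vehicle and -1.28, -0.30 and 0.13 in propolis. The part of these cell types in the signalling and receptor values was not tested.

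**Figure D4:**
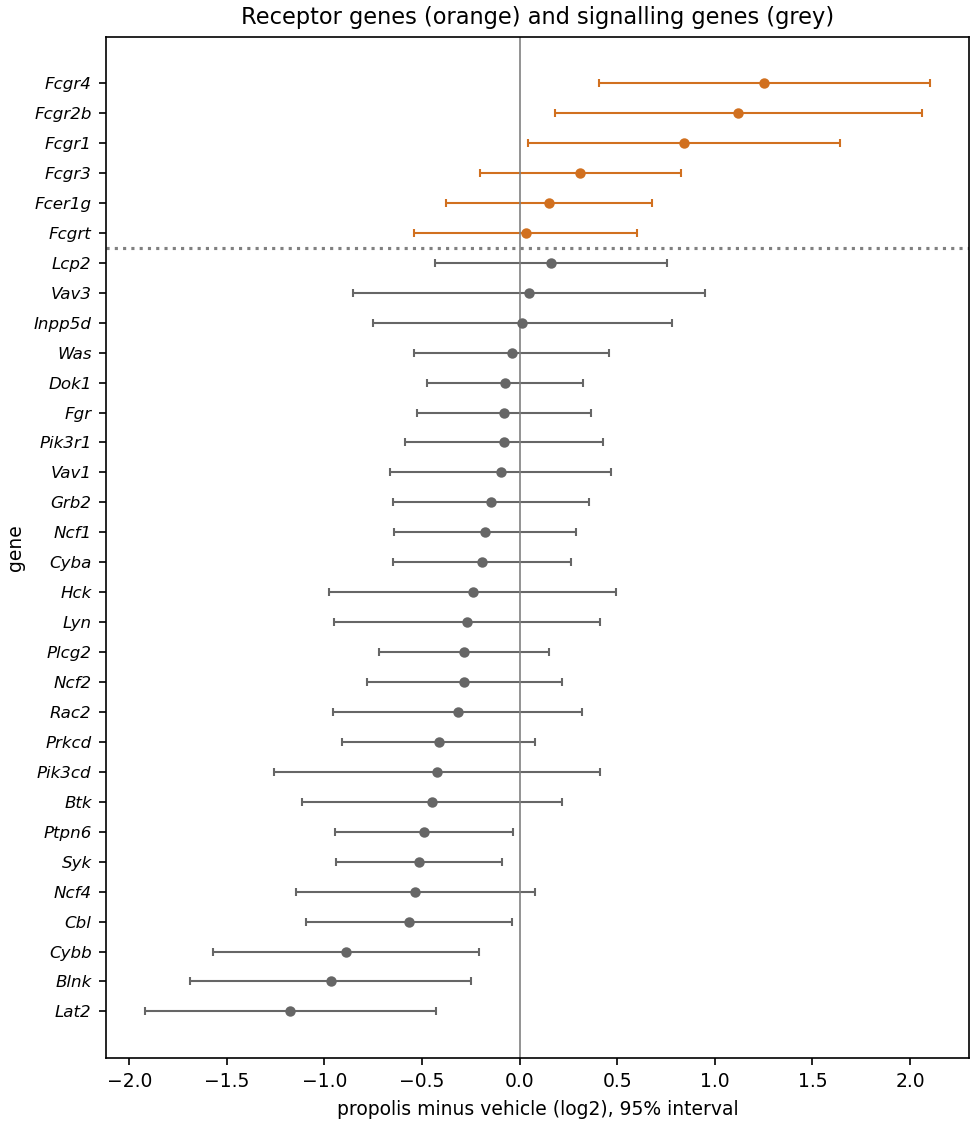
Propolis minus vehicle difference in log2 level (x axis) of the 26 signalling genes, ordered by size (grey), and of the 6 receptor genes above the dotted line (orange), with 95% intervals. Signalling genes lie mostly below 0, with a median of -0.28, and the 6 receptor genes above 0.

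Among 12 other Fc receptors and Fc-binding proteins, 10 entered the test and none passed. Ms4a2 and Fcamr were not well above background on any array. Of the 10, 4 had a higher and 6 a lower mean. The median was -0.41, and it was -0.26 without vehicle 2 and -0.62 without vehicle 3. Among the lower ones, Fcer2a, Fcrla and Fcrl1 differed by -2.30, -1.92 and -1.42, each with its highest level in vehicle 2. On the slide with 1 array of each group they differed by 0.24, -0.32 and 0.49. Fcrls, an Fc receptor-like gene known from microglia and some macrophages, was 1.20, 1.44 and 1.71 in vehicle and 2.42, 3.61 and 2.76 in propolis, without overlap. Its difference of 1.48 (SE 0.34, adjusted p 0.146 by limma) was 1.69 and 1.04 within the slides.

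Pigr, which carries polymeric IgA and IgM across epithelia, differed by 0.041 (adjusted p 0.969). Fcer1a, the alpha chain of the IgE receptor and also a partner of Fcer1g, was -0.46, -0.65 and -1.10 against -1.15, -1.58 and -1.43, a difference of -0.65 (SE 0.23, adjusted p 0.353). Mast cells carry it, and of 7 mast cell markers 6 had a lower mean, with a list mean of 0.54 to 0.91 in vehicle and -0.25 to 0.61 in propolis. Fcmr, the IgM receptor of B cells, was 2.10, 4.15 and -0.58 against -1.95, -1.51 and -0.53, a difference of -3.22 (SE 1.15, adjusted p 0.347) that was -4.85 on the slide of 4 arrays and 0.047 on the other, and -2.09 without vehicle 2. The B cell markers were also highest in vehicle 2. The part of either cell type in these values was not tested.

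Fcer1g also serves receptors that do not bind antibody. Of 6 listed, 5 entered the test, and 4 of them had a higher mean, with a median difference of 0.22 that was -0.012 without propolis 1. Gp6 was not well above background on any array. Clec4n, which encodes the fungal polysaccharide receptor Dectin-2, was 2.20, 1.60 and 1.71 in vehicle and 5.15, 4.24 and 3.77 in propolis. The gap between the groups was wide, and the difference of 2.55 (SE 0.38), or 5.85-fold, had an adjusted p of 0.0507 by limma, just short of the threshold. It passed in 8 of 20 other settings with a test, among them quantile normalization (0.0409) and slide as a block (0.0481), and had an adjusted p between 0.0583 and 0.201 with each array left out in turn. Without vehicle 2 and 3 its difference was 2.18. Clec4e, the receptor Mincle, differed by 0.42 (adjusted p 0.804) and Clec4d by 0.22 (adjusted p 0.923). Their signs are not stable, since both turn negative without propolis 1 (-0.078 and -0.48).

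Of the adaptors that resemble Fcer1g, Tyrobp was 7.06, 6.59 and 7.01 in vehicle and 6.68, 6.91 and 6.35 in propolis. Its difference was -0.24 (SE 0.23, adjusted p 0.762), Hcst differed by -0.34 (adjusted p 0.702) and Cd247, the zeta chain of T and natural killer cells, by -1.23 (adjusted p 0.519). None of these 3 passed, and leaving out an array took Tyrobp to -0.093 (without propolis 3), Hcst to -0.16 and Cd247 to -0.56 (both without propolis 1). Among 13 other leukocyte receptors with an inhibitory motif, the relatives of Fcgr2b by function, 3 had a higher and 10 a lower mean, with a median of -0.23, no passing gene and overlap between groups in all 13. Cd72, a B cell inhibitory receptor, differed by -0.98 (adjusted p 0.537), Cd22 by -0.57 (adjusted p 0.664) and Lair1, a collagen receptor, by -0.40 (adjusted p 0.677). Cd22 was -0.21 without vehicle 2 and -0.95 without vehicle 3, and Lair1 was -0.23 without vehicle 1. With each array left out in turn, Cd72 ran from -1.49 (without vehicle 3) to -0.66. The median of this list was 0.16 without propolis 3, and with median scaling 6 were higher and 7 lower.

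Genes known to control Fc receptor transcription did not pass the test. Of 11 listed, 4 had a higher and 7 a lower mean, and the median was -0.25, which was -0.13 without propolis 1 and -0.097 with median scaling. Cebpb, a factor of inflammatory myeloid cells, was 4.56, 4.05 and 3.81 in vehicle and 5.60, 4.88 and 4.56 in propolis, a difference of 0.87 (SE 0.33, adjusted p 0.385). Its groups did not overlap, but the gap between vehicle 1 and propolis 3 was only 0.0068. Irf8 differed by -0.41 (SE 0.18, adjusted p 0.452) and Irf1 by -0.32 (adjusted p 0.560), each with every propolis array below every vehicle array. Spi1, which encodes PU.1, differed by -0.67 (adjusted p 0.679), with overlap.

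For the ligand side, 7 of 12 listed antibody genes, the immunoglobulin constant regions, were not matched to a probe by symbol here, so the amount of antibody transcript was not analysed. The other 5 mark antibody-secreting cells, and 3 had a higher and 2 a lower mean, with a median of 0.44 and no passing gene. That median was -0.076 without vehicle 3. Sdc1 differed by 0.78 (adjusted p 0.529), Derl3, a secretory pathway gene, by 0.75 (adjusted p 0.544) and Tnfrsf17 by -0.63 (adjusted p 0.723), all with overlap. Without propolis 1, Sdc1 was 0.45 and Tnfrsf17 -0.12, and Derl3 was 0.41 without vehicle 3.

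On chromosome 1 7 other protein-coding genes lie between Fcgr2b and Fcer1g. Their differences ran from -1.55 for Pcp4l1 to 0.27 for Nr1i3, and none passed the test. Fcgr4, with a difference of 1.25, has Fcgr2b (1.12) and Fcgr3 (0.31) as its nearest protein-coding genes on either side in the annotation, and Cfap126, the next after Fcgr3, had -0.11.

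The genes most like each receptor over the 6 arrays were ranked by Pearson's r among 15771 genes with a symbol, as a description, since all points share the same treatment, slide and cell mixture. Fcgr4 was most like Tgm1 (r 0.996), Ereg (0.995) and Gkap1 (0.995), and Fcgr2b like Tent2 (0.998), Borcs7 (0.997) and Mefv (0.995). Fcgr1 was closest to Siva1 (0.997), Serinc1 (0.994) and Blzf1 (0.994), and Fcgr3 to Rnf130 (0.990), Washc1 (0.984) and Siglec1 (0.980). For Fcer1g they were Amn1 (0.981), Dcxr (0.979) and Nudt14 (0.977), and for Fcgrt Asgr2 (0.996), Atg9a (0.990) and Aoc3 (0.984). With 6 arrays such values are common: 604 genes exceeded an r of 0.9 with Fcgr4, 569 with Fcgr1, 434 with Fcgr2b, 108 with Fcgrt, 93 with Fcgr3 and 86 with Fcer1g. No receptor gene was among the 3 closest genes of another.

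**Figure D5:**
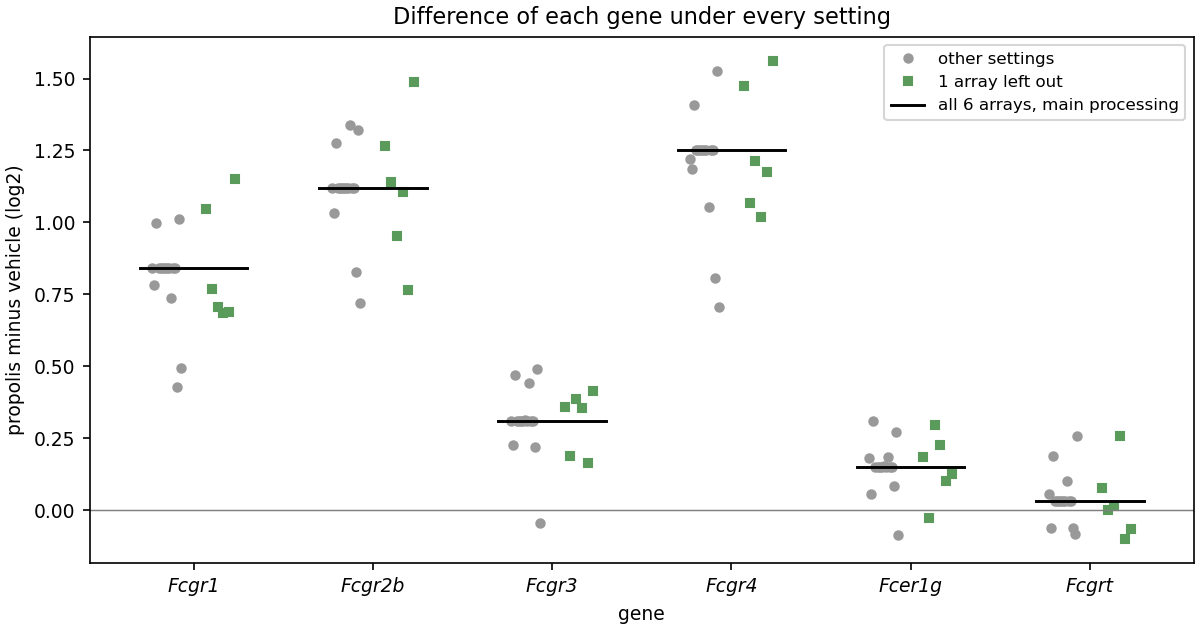
Propolis minus vehicle difference in log2 level (y axis) of the 6 genes (x axis) under each processing setting and within slides (grey) and with each array left out (green), with a line at the value over all 6 arrays. Fcgr1, Fcgr2b, Fcgr3 and Fcgr4 stay above 0 apart from Fcgr3 on the slide with 1 array of each group, whereas Fcer1g and Fcgrt lie on both sides of 0.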

How the data were processed

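Per the file headers and the submitters' processing notes, the 6 arrays were 1-colour Agilent arrays read with Agilent Feature Extraction 10.7.3.1. The deposited scanner files hold gProcessedSignal, a background-corrected intensity on a linear scale. The series table that the authors deposited is on a log2 scale with the 75th percentile of every array close to 0, and served only as an alternative.

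Intensities were turned to log2, non-uniform spots left out, spots of a probe averaged and each array's 75th percentile subtracted. The scaling percentile lay between 459.4 and 729.0 intensity units, and the number of arrays limits the precision. A probe entered if well above background on at least 3 arrays, and a gene was represented by the brightest of its entering probes. Symbols came from RefSeq accessions through a table of GRCm38.p6. Groups followed the labels. limma 3.58.1 in R 4.3.3 (lmFit, eBayes, no block) compared 3 propolis with 3 vehicle arrays, with Benjamini-Hochberg adjustment over 25777 genes and a threshold of 0.05. The fit was checked on simulated data with 200 changed genes. It passed 9.25% of the 2-fold changes, 56% of the 4-fold and 88.6% of the 16-fold ones. A gene that did not pass here may therefore still differ by 2-fold or more. Fitted over all 34782 probes, the comparison called 253, or 0.727%, and none of the 6 receptor probes.

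The receptor genes, gene lists and tests were chosen with earlier results of these data known. Genes named are the 6 receptors, up to 3 genes of lowest p per pathway list, up to 3 of highest level per marker list and the 3 most correlated genes per receptor. Other genes named, among them Syk, Cbl, Ptpn6, Inpp5d, Spi1, Pigr and the chromosome neighbours, were chosen after their values were seen. A regulator on the lists is not reported here. Alternatives covered background, scaling, filter, flags, probe rule, variance model, array weights, series table, slide and replicate blocks, slides alone and arrays left out. Normexp used median signals.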

Additional observations from a re-analysis of the deposited data

How the results depend on the processing

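The differences of Fcgr1, Fcgr2b and Fcgr4 kept their sign in all 21 alternatives and ran from 0.43 to 1.15, 0.72 to 1.49 and 0.70 to 1.56; that of Fcgr3 ran from -0.047 to 0.49. In 20 alternatives with a test, a receptor gene passed with array weights alone, Fcgr2b at 1.34. Median scaling put the median of all genes at 0.15, and the receptor differences were 0.19 (Fcgrt) to 1.41 (Fcgr4) there. Over all genes, 215 passed. That count was 106 with no filter, 3231 with array weights and 11 to 94 with an array left out. It was 0 on slide 1 alone (5856 at an unadjusted p below 0.05), a limma fit with fewer arrays. With the replicate block 73 genes passed (0.283%) and no receptor gene did, with adjusted p from 0.156 for Fcgr4 to 0.958 for Fcgrt. Deviations of same-numbered arrays correlated at 0.036, 0.29 and 0.14, and those of differently numbered arrays at -0.31 to 0.21. The labels do not state that the numbers pair the samples, so they are not taken to do so. With slide as a block 313 genes passed (1.21%) and again no receptor gene.

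On slide 2 alone, with no test, Fcgr3 was -0.047, Fcgr4 0.70, Fcer1g -0.088, Fcer1g, Fcgr3, Fcgr4 and Fcgrt minus the macrophage markers -0.14, -0.096, 0.66 and 0.21, and Fcgr4 minus Fcgr2b -0.014. On slide 1 alone Fcgrt was -0.084. Without vehicle 2 and 3, Fcgrt was -0.063, Fcgr4 minus Fcgr2b -0.022, Fcgrt minus the macrophage markers 0.079, Clec4e -0.11 and B2m -0.086. Quantile normalization gave Fcgrt -0.063 and B2m -0.019, and array weights gave Clec4e -0.14 and Clec4d -0.27. With each array left out in turn, Fcer1g ran from -0.026 to 0.30, Fcgrt from -0.10 to 0.26, Fcgr4 minus Fcgr2b from -0.089 to 0.41, Fcer1g minus the macrophage markers from -0.013 to 0.22, Fcgrt minus them from -0.17 to 0.14, Clec4e from -0.078 to 0.74, Clec4d from -0.48 to 0.58 and B2m from -0.082 to 0.085. The median of the antibody-secreting cell genes was -0.15 on slide 1 alone and -0.076 without vehicle 3. Among these values, Fcgr4 and Fcgr4 minus the macrophage markers kept their sign and were only smaller. The cause of these changes of sign or size was not tested.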
